A study of Drosophila melanogaster with 2 samples.

Results

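The genes described here are the chemoreceptors of Drosophila melanogaster, which encode the receptor proteins that fly sensory neurons use to smell and taste. They were chosen by symbol, as every protein-coding gene of the Ensembl BDGP6 annotation whose name is Or, Gr or Ir followed by a digit. The rule found 179 of 13945 protein-coding genes, of which 59 are odorant receptors (Or), 60 gustatory receptors (Gr) and 60 ionotropic receptors (Ir). It left out 7 pseudogenes with such symbols, and Orco, the co-receptor of the Or proteins, whose symbol has no digit. Their positions were compared with the regions bound by Hr39, a nuclear receptor without a known hormone that belongs to the NR5 family. The regions come from chromatin immunoprecipitation and sequencing (ChIP-seq) of whole white prepupae, the stage that opens metamorphosis, from the strain Hr39-RC-GFP, with males and females mixed. All animals carried a transgene for Hr39 with a C-terminal eGFP, and the free text of the labels says that an antibody against GFP was used, while their antibody field names Hr39. The samples form 1 group of 2 biological replicates, numbered 1 and 3, of unknown age; no second genotype, stage or treatment and no precipitation from animals without the fusion were analysed here.

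Odorant receptors are membrane proteins that open as ion channels together with Orco, and each olfactory neuron usually makes a single one of them. Gustatory receptors serve taste neurons for sugars and bitter compounds and, in the antenna, the sensing of carbon dioxide. Ionotropic receptors derive from glutamate-gated channels and work with broadly used co-receptors; they sense acids, amines, humidity and temperature, and a larger divergent group is found mainly in taste organs. The larva has its own set of chemosensory neurons, and most adult ones differentiate during metamorphosis, after the stage sampled here. Hr39 binds DNA as a nuclear receptor, through elements that contain the AGGTCA or CAAGG core of the NR5 family.

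The sequences under 4 of the 5 regions of the optimal list with a summit within 1000 bp of a chemoreceptor transcription start site are printed first, since any bound element would be sought there. A binding region has a summit, the base with the highest signal, and each line holds the 201 bases centred on it, 5′ to 3′ on the plus strand of dm6, from the RefSeq genome sequence of that build. The windows are chr3R:23486841-23487041 for Ir94h, chr3R:14108525-14108725 for Or88a, chrX:10460570-10460770 for Or9a and chr3L:10434217-10434417 for Ir67c. Capitals mark matches on either strand to any of 6 motifs: AGGTCA, the nuclear receptor core; AAGGTCA, which contains it; the NR5 element, written here as a pyrimidine, CAAGG, a pyrimidine, C and a purine; GAGAG, the core bound by the GAGA factor; TATCGATA, the element of the DREF factor; and CANNTG, the E-box of helix-loop-helix factors. The NR5 element and AAGGTCA can overlap.
Ir94h: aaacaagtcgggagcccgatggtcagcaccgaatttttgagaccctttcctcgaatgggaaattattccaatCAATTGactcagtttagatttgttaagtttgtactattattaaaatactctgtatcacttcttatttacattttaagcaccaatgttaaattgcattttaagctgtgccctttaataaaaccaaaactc
Or88a: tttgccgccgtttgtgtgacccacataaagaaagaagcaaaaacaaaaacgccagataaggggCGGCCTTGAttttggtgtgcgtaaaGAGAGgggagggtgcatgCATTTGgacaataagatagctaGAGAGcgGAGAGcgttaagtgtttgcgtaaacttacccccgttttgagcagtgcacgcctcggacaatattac
Or9a: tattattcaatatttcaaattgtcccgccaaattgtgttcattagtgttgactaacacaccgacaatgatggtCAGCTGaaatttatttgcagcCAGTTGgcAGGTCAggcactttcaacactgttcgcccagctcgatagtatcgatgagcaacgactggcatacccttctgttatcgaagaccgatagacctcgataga
Ir67c: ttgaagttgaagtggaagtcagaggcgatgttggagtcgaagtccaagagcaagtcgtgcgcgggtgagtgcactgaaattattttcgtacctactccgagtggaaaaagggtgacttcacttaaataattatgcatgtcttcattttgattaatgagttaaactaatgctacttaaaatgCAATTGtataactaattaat

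The Or88a window held the single match to the NR5 element in these windows. It lies at 14108588 to 14108596 on arm 3R, 29 bp from the summit and on the minus strand, where it reads TCAAGGCCG; its plus-strand letters are the first run of capitals in the Or88a line. Within 50 bp of the summit, 39 of the 7426 windows of the optimal list, the strongest set defined below, held the NR5 element (0.525%). In windows of that length from the pooled list, also defined below, the share was 0.685%, so the element was no commoner in the optimal set. The same Or88a window held 3 GAGAG matches and 1 CANNTG match. Within 50 bp of the summit, GAGAG was in 8.79% of all optimal windows and CANNTG in 34.9%. The printed windows are wider, so a match to such a common motif is no result about a region. The Or9a window held 1 AGGTCA match, found in 1.99% of all optimal windows, next to 2 CANNTG matches. The Ir94h window, under the region with the highest signal of the 5, held neither nuclear receptor core; its 1 match was to CANNTG, and 25.7% of the bases within 50 bp of the summit were G or C. The Ir67c window held 1 CANNTG match at its edge. A match is a string of letters and was not tested for binding.

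The authors deposited 4 lists of regions on dm6, and the chemoreceptors were read against each. A candidate list of about the same size was made for each replicate (29999 regions for replicate 1 and 29972 for replicate 3 on the 6 arms, which are X, 2L, 2R, 3L, 3R and 4) and one for both replicates pooled (28752). The optimal list holds the 7426 regions that passed the authors' irreproducible discovery rate, a measure of how well the ranks of 2 replicates match. Candidate lists are long by design and reach into weak regions. Rank 1 is the region with the highest signal within a list, the signal being the authors' own value, and the highest-signal regions of a replicate are its first 7426. The sequencing depth is unknown from these lists. A gene counted as having a promoter summit where a summit lay within 1000 bp of any of its annotated transcription start sites (TSSs), and as having a body summit where one lay between its annotated ends. With 1 group and 2 replicates no test was made, and counts over the 179 genes are read beside the share of all protein-coding genes with such a summit. Whole animals were used, so binding in few cells and weak binding in many cells cannot be told apart.

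Few chemoreceptor genes had strong Hr39 regions at their promoters. In the optimal list, 5 of 179 had a promoter summit (2.79%), against 25.2% of all protein-coding genes. These 5 were 2 of 59 Or genes (3.39%), 0 of 60 Gr genes and 3 of 60 Ir genes (5.0%). The highest-signal regions of replicate 1 gave 6 genes (3.35%; 2 Or, 1 Gr, 3 Ir), against 24.4% of all genes, and those of replicate 3 gave 3 (1.68%; 2 Or, 1 Ir), against 28.0%. The shares were below the all-gene share in both replicates and in each family.

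In the candidate lists the counts were higher and the replicates differed more. The pooled list had a promoter summit at 30 chemoreceptor genes (16.8%; 11 Or, 9 Gr, 10 Ir), against 43.5% of all genes. Replicate 1 had one at 48 (26.8%; 16 Or, 13 Gr, 19 Ir), against 43.6%, and replicate 3 at 26 (14.5%; 11 Or, 6 Gr, 9 Ir), against 50.1%. Thus the replicate with the higher chemoreceptor share was the one with the lower share over all genes. Across the 3 candidate lists 62 chemoreceptor genes (34.6%) had a promoter summit in at least 1 list and 117 (65.4%) in none. That count was not made over all protein-coding genes, so it is no result about the receptors.

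No chemoreceptor gene had an optimal summit in its body, against 14.5% of all protein-coding genes. The highest-signal regions gave 0 as well, against 14.3% of all genes in replicate 1 and 15.0% in replicate 3. Body summits of candidate regions were found at 15 genes in the pooled list (8.38%; 7 Or, 5 Gr, 3 Ir; 28.5% of all genes), at 34 in replicate 1 (19.0%; 12 Or, 9 Gr, 13 Ir; 30.9% of all genes) and at 13 in replicate 3 (7.26%; 7 Or, 4 Gr, 2 Ir; 31.5% of all genes). Chemoreceptor genes are short, with a median length of 1691 bp against 2166 bp over all genes. Per length, the pooled list had 41.9 body summits per Mb of chemoreceptor gene, against 192 over all genes. Replicate 1 had 90.0 per Mb against 201, and replicate 3 35.6 against 205. The gene with the most pooled body summits was Ir41a, an antennal amine receptor and the longest chemoreceptor gene (104437 bp), with 4 in the pooled list, 7 in replicate 1 and 2 in replicate 3; its pooled ranks ran from 24058 to 26767 of 28752.

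**Figure D1:**
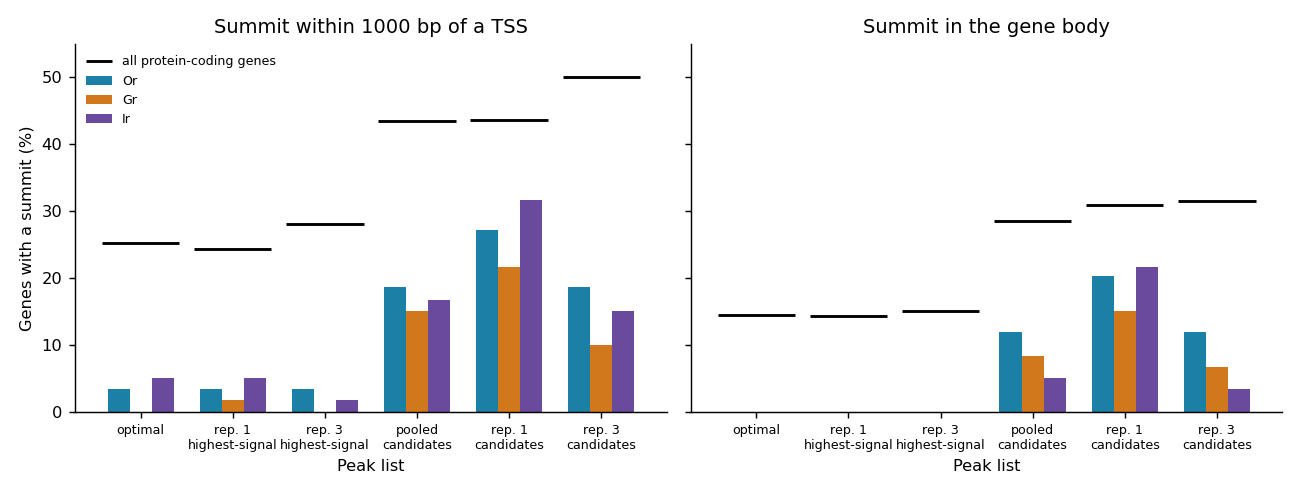
Share of Or (n = 59), Gr (n = 60) and Ir (n = 60) genes with a summit within 1000 bp of a TSS (left) or in the gene body (right), in percent, for 6 lists; black lines give the share of all 13945 protein-coding genes. All bars stand below the line of their list, and in the right panel the optimal and highest-signal lists have no bar because the count was 0.

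The chemoreceptor genes lacked the accumulation of summits that other genes have just upstream of their start. Over all protein-coding genes, 17.1 optimal summits per 100 genes fell in the 500 bp upstream of the 5′ end, against 3.34 in the next 500 bp upstream. At chemoreceptor genes these values were 1.12 and 1.68, from 2 and 3 summits. In the 1000 bp downstream of the 5′ end no optimal summit lay at a chemoreceptor gene. Over all genes the values there were 3.14 in the first 500 bp and 3.2 in the next. In the pooled list the 500 bp upstream held 30.4 summits per 100 genes over all genes and 7.26 at chemoreceptors. Between 2000 and 4000 bp upstream the pooled values were higher at chemoreceptors, with 11.2 to 12.3 against 9.38 to 10.3 over all genes. From 4000 to 4500 bp upstream the chemoreceptor value was lower, 7.82 against 10.1. It was also lower in every bin from 2000 bp upstream to 4500 bp downstream. Between 500 and 4500 bp downstream it was 1.12 to 8.94, against 8.5 to 9.68. In the outermost bins it was 10.6, against 10.4 upstream and 10.2 downstream.

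**Figure D2:**
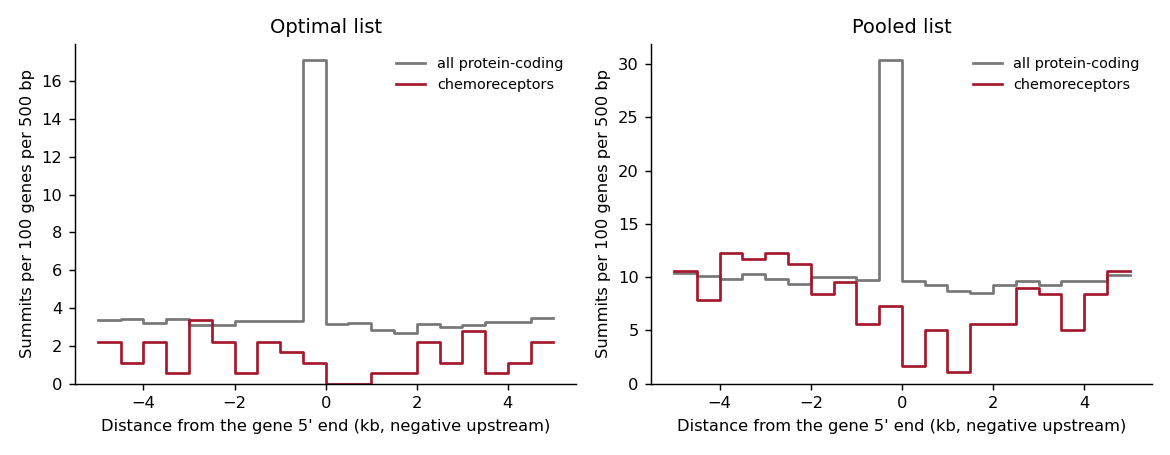
Summits per 100 genes in bins of 500 bp from 5 kb upstream to 5 kb downstream of the gene 5′ end, for the optimal list (left) and the pooled candidate list (right), with all protein-coding genes in grey and the 179 chemoreceptor genes in red. The grey peak in the bin just upstream of the 5′ end (17.1 and 30.4) has no counterpart in red (1.12 and 7.26).

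The median distance from a chemoreceptor TSS to the nearest optimal summit was 13132 bp, against 5751 bp over all protein-coding genes. It was 15565 bp for Or, 11618 bp for Gr and 11083 bp for Ir genes. For 112 chemoreceptor genes (62.6%) the nearest optimal summit was more than 10 kb away, against 35.3% of all genes. Within 5000 bp, 16 Gr genes (26.7%) and 14 Ir genes (23.3%) had an optimal summit, but 5 Or genes (8.47%) did, where all genes had 46.9%. The family shares were closer at 2000 bp, with 6.78% of Or, 6.67% of Gr and 5.0% of Ir genes. At 20000 bp they were 61.0%, 61.7% and 76.7%. Neighbouring receptor genes can share the same summit and are not independent, and a difference between families was not tested. By the nearest pooled candidate the gap to all genes was smaller, with medians of 2821 bp and 1620 bp.

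**Figure D3:**
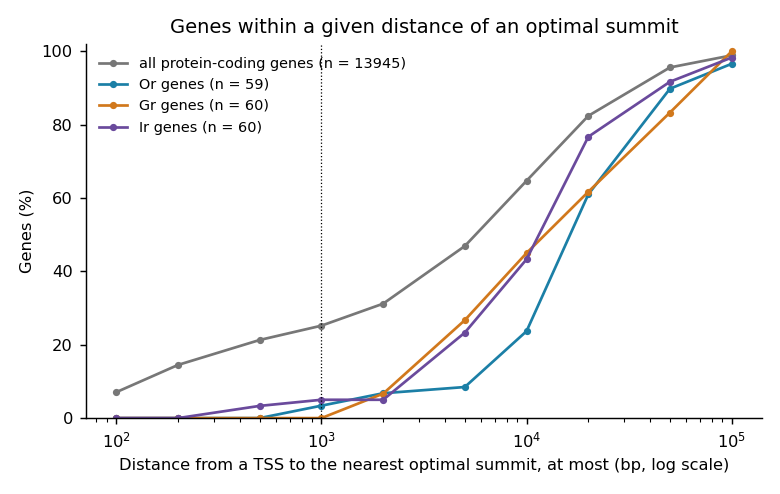
Percent of genes with an optimal summit within a given distance of a TSS, on a log axis from 100 to 100000 bp, for all protein-coding genes and for each chemoreceptor family; the dotted line marks 1000 bp. All 3 family curves lie below that of all genes up to 50000 bp, and the Or curve is at 8.47% at 5000 bp where Gr is at 26.7% and Ir at 23.3%.

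Ir94h, a divergent ionotropic receptor, had the region with the highest signal of the 5. It spans chr3R:23486782-23487115, with its summit at 23486941, 560 bp upstream of the gene, between Ir94g and Ir94h and outside any annotated gene. It ranked 617 in the pooled and optimal lists, 666 in replicate 1 and 632 in replicate 3, with replicate summits 0 and 10 bp from the pooled one. The nearest TSS of another gene was that of the non-coding RNA lncRNA:CR44324 at 1460 bp, and the nearest TSS of another protein-coding gene was that of Ir94g at 3078 bp. The TSS nearest to this summit was thus that of a chemoreceptor.

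Or88a encodes a receptor of the adult antenna for fly pheromones. Its region, chr3R:14108575-14108693, had the summit with the NR5 match printed above. The summit lay 820 bp upstream of Or88a and 304 bp from the start of CG12402, which is transcribed away from it on the other strand. The region ranked 3141 in the pooled list, 3887 in replicate 1 and 2792 in replicate 3. It was 119 bp wide, whereas 45.7% of optimal regions have the commonest width of 396 bp. A weaker pooled candidate lay 615 bp from the Or88a TSS at rank 18124, with ranks of 28296 and 18088 in replicates 1 and 3.

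Or9a, another odorant receptor, met the rule by 6 bp. The summit of its region, chrX:10460472-10460867, lay 994 bp upstream of Or9a but 66 bp from the TSS of Neb-cGP on the opposite strand. The ranks were 4742 in the pooled list, 4744 in replicate 1 and 4990 in replicate 3. At Or88a and Or9a, 2 of the 5 regions, the summit was therefore nearer to another gene's TSS than to the receptor's. The share of such regions at all protein-coding promoters was not counted.

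Ir67c and Ir60a, both divergent ionotropic receptors, had the summits closest to their TSS and the lowest ranks of the 5. The Ir67c region, chr3L:10434119-10434514, lay 212 bp upstream and ranked 7046 in the pooled list, 6606 in replicate 1 and 8313 in replicate 3; the next TSS was that of its neighbour Ir67b at 2334 bp. The Ir60a region, chr2R:24251306-24251701, lay 201 bp upstream, in an intron of nord, which holds Ir60a on its opposite strand. It ranked 7229, 6832 and 8489, and the next TSS was that of CG13575 at 3823 bp. Both ranks stand close to the end of the optimal list at 7426, and in replicate 3 alone both regions fell outside the highest-signal set. The Ir60a window held no match to any of the 6 motifs within 100 bp.

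**Figure D4:**
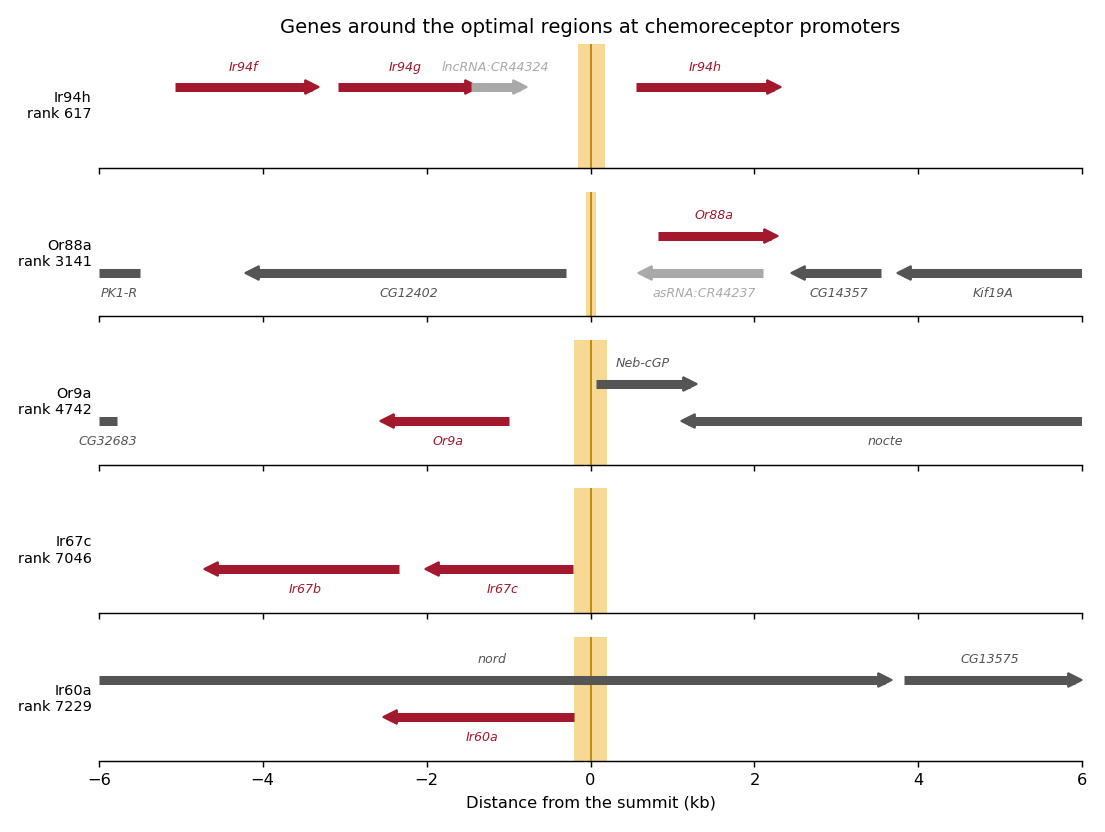
Genes within 6 kb of the summits of the 5 optimal regions, ordered by rank; plus-strand genes are drawn above and minus-strand genes below, arrowheads give the direction, chemoreceptors are red, other protein-coding genes dark grey and non-coding genes light grey, and the yellow band is the region. The Or88a and Or9a summits lie nearer to CG12402 (304 bp) and Neb-cGP (66 bp) than to the receptor (820 and 994 bp).

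The next regions out, with summits between 1000 and 2000 bp from a TSS, were at Gr59a (1369 bp, rank 5289), Gr39b (1374 bp, 3559), Gr5a (1395 bp, 1048), Gr89a (1412 bp, 2109), Or85f (1910 bp, 1527) and Or45b (1954 bp, 4137). At 4 of the 6 another gene's TSS was nearer to the summit. It was that of Art7, a protein arginine methyltransferase gene, at 154 bp near Gr59a and of CG8665 at 147 bp near Gr39b. Near Or85f it was that of CG34117 at 47 bp, and near Gr5a that of Tre1 at 755 bp. The share of such summits over all genes was not counted, so 4 of 6 is no result about the receptors. Gr5a is a receptor for the sugar trehalose, and its neighbour Tre1 encodes a receptor needed for germ cell migration; the summit lay in an intron of Tre1. The Gr89a summit lay 270 bp beyond the 3′ end of Gr89a, a bitter receptor gene. With 1000 bp added on each side of the gene bodies, 10 chemoreceptor genes (5.59%) had an optimal summit, against 32.6% of all genes. In 5 of these, Gr89a, Gr93b, Ir68b, Or67c and Or85f, it lay beyond the 3′ end by 270 to 835 bp, and the other 5 were the genes with a promoter summit.

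Neighbours were counted for every gene. Of the chemoreceptors, 45 (25.1%) had a TSS of a protein-coding gene that is no chemoreceptor within 2000 bp of a TSS of theirs, while 60.8% of all protein-coding genes had another protein-coding TSS that near. Where such a neighbour was present, 2 of 45 chemoreceptors (4.44%) had an optimal promoter summit, against 30.2% of all genes with a neighbour. Without one, 3 of 134 (2.24%) did, against 17.4%. The chemoreceptor share was below that of all genes on both sides of the split.

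Receptors of known role form small groups, and 2.79% of all chemoreceptors had an optimal promoter summit. The absence of one from such a group is therefore no result about its role, and no group was tested in any list. Those for sugars, 9 genes, had no promoter summit in any of the 4 lists. These are Gr5a, Gr61a, Gr43a and Gr64a to Gr64f, and their nearest optimal summits were 1395 to 20731 bp away. No summit of any list lay within the Gr64 cluster of 6 genes on 3L. The bitter receptors Gr32a, Gr33a, Gr39a, Gr66a, Gr89a and Gr93a had no optimal, pooled or replicate 3 promoter summit. Gr33a, used in most bitter neurons, had a candidate of replicate 1 in a coding exon 796 bp from its TSS, at rank 22658 and with no match in replicate 3, and a pooled candidate in its body at rank 18871.

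The carbon dioxide receptor is formed by Gr21a and Gr63a, and both genes had pooled candidates, neither in the optimal list. The Gr63a candidate was 281 bp upstream and ranked 8101 in the pooled list, 9047 in replicate 1 and 7850 in replicate 3, just below the 7426 regions of the optimal list. Its summit was 16 bp from the TSS of Lamtor4, a subunit of a lysosomal signalling complex. At Gr21a, candidates 237 and 34 bp from a TSS ranked 17407 and 23452. Replicate 1 had one at rank 15954, and the nearest candidate of replicate 3 lay 12717 bp away. Gr63a therefore had a candidate in both replicates and Gr21a in replicate 1.

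Of the broadly used ionotropic co-receptors, Ir8a, Ir25a and Ir76b, none had an optimal or pooled promoter summit. Their nearest optimal summits were 7058, 2569 and 14069 bp from a TSS. Ir76b had a candidate of replicate 1 at 69 bp, at rank 28479 of 29999 and without a match in replicate 3. The temperature and humidity receptors Ir21a, Ir40a, Ir68a, Ir93a and Gr28b had no promoter summit in any list, with nearest optimal summits at 10016 to 141479 bp. Ir40a had a pooled candidate in a coding exon of its body at rank 20193. Ir84a, which promotes male courtship, was 59012 bp from an optimal summit and had no promoter candidate in any list. These groups are small as well, so the absences are no result about their roles.

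Among pheromone receptors, Or88a was the member with an optimal summit. Or67d, the receptor for the male pheromone cis-vaccenyl acetate, had none in any list, its nearest pooled candidate being 1217 bp away. Or47b had none either, at 2716 bp. Or65a had a pooled candidate in an intron 178 bp from its TSS at rank 18659, matched in replicate 3 at rank 17813 and not in replicate 1. Or56a, the receptor for geosmin, a microbial odorant, had a candidate of replicate 1 alone, in an intron 330 bp from its TSS at rank 23561.

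Pooled promoter candidates at chemoreceptors were weak for the most part. The pooled list had 34 regions at chemoreceptor promoters, of which 5 (14.7%) ranked within 7426, with a median rank of 18112; over all protein-coding promoters 39.8% of 8047 regions did, with a median of 10021. The regions within 7426 numbered 5 and 3203, as many as in the optimal list, so these shares largely repeat the optimal counts. Outside the optimal list, the strongest besides Gr63a were at Ir94f, Ir85a and Gr39b. Ir94f lies in the same cluster as Ir94h, and its pooled candidate 349 bp upstream ranked 7647. Replicate 3 had a candidate 386 bp upstream at rank 8001, and replicate 1 had one 462 bp upstream at rank 7796, 76 bp from that of replicate 3, and a weaker one 261 bp upstream at rank 23654. The Ir85a candidate, 297 bp upstream and in introns of the overlapping Pif1A and Pif1B genes, ranked 8386, 8873 in replicate 1 and 9459 in replicate 3. Gr39b had a candidate 419 bp upstream at rank 8914, with ranks of 7025 in replicate 1 and 14710 in replicate 3, and another 979 bp downstream in an intron at rank 9412. The upstream one put Gr39b among the highest-signal regions of replicate 1. Of the 34 regions 24 were upstream and 10 downstream of the nearest receptor TSS, 17 lay outside any annotated gene, and 5 were nearer to another gene's TSS. These places were not counted over all promoters.

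**Figure D5:**
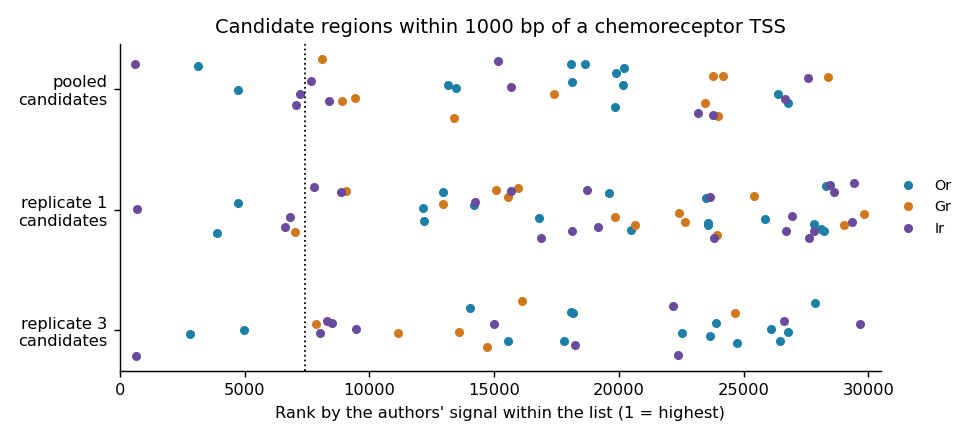
Ranks of the candidate regions within 1000 bp of a chemoreceptor TSS in the pooled (34 regions), replicate 1 (52) and replicate 3 (32) lists, coloured by family and spread vertically at random; rank 1 is the highest signal and the dotted line marks the size of the optimal list, 7426. Left of the line lie 5, 6 and 3 regions.

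Candidates of replicate 1 were shared with replicate 3 less often at chemoreceptors than at protein-coding genes as a whole. A promoter candidate of both replicates was found at 15 chemoreceptor genes, which is 31.2% of the 48 of replicate 1 and 57.7% of the 26 of replicate 3, while 33 had one in replicate 1 alone and 11 in replicate 3 alone. Over all protein-coding genes 4890 were shared, 80.5% of those of replicate 1 and 69.9% of those of replicate 3. By region, 14 of the 52 chemoreceptor promoter regions of replicate 1 (26.9%) had a replicate 3 summit within 100 bp, against 62.1% of 7591 over all promoters. In the other direction 14 of 32 (43.8%) were matched, against 49.1% of 9622. That share is near the one over all promoters, so this direction is no result about the receptors. Regions at chemoreceptors are weaker than most, and the part of rank in the sharing was not tested.

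The candidates of the replicates also differed in place. Of the 52 chemoreceptor promoter regions of replicate 1, 21 (40.4%) had their summit in a coding exon, against 2 of 32 (6.25%) in replicate 3 and 5 of 34 (14.7%) in the pooled list. Over all protein-coding promoters these shares were 9.35% in replicate 1, 3.59% in replicate 3 and 4.76% in the pooled list. None of the 5 optimal regions had its summit in an exon, against 17.6% of 3203 optimal regions at all protein-coding promoters, a share at which 0 of 5 is no result about the receptors. Replicate 1 had both the higher chemoreceptor count and the larger share of summits in coding exons, and a link between them was not tested.

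Summits of both replicates within 100 bp of each other were found at the promoters of 12 chemoreceptor genes (6.7%), against 31.5% of all protein-coding genes. They were the 5 genes of the optimal list and Gr39b, Gr63a, Gr77a, Ir60b, Ir64a, Ir85a and Ir94f, that is 2 Or, 3 Gr and 7 Ir genes. Ir64a, an antennal acid receptor, had a candidate in its intron 609 bp from the TSS, with ranks of 15661 in the pooled list, 16870 in replicate 1 and 26614 in replicate 3. The Ir60b regions, ranked 26931 and 14998 in replicates 1 and 3 with no pooled summit within 1000 bp of the TSS, lay 325 and 310 bp from Ir60b but 40 and 55 bp from the TSS of Letm1, a mitochondrial membrane protein gene.

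Many chemoreceptors lie in clusters. With members joined when they lay within 10 kb of each other, 28 clusters held 82 genes, up to 6 each, and 97 genes stood alone. An optimal promoter summit was found at 2 of the 82 clustered genes (2.44%) and at 3 of the 97 others (3.09%), against 25.2% of all genes. A pooled one was found at 15 clustered genes (18.3%) and 15 others (15.5%), against 43.5%. Optimal summits lay within the span of 2 clusters. In the Gr93a to Gr93d cluster, 3 optimal summits ranked 689, 1113 and 5996, at 5154, 4949 and 2079 bp from the nearest receptor TSS, that of Gr93b, and none at a promoter. In the Ir94f to Ir94h cluster the single summit was that upstream of Ir94h. Members that share a cluster or a gene model are not independent: Or10a and Gr10a are annotated on the same span, as are Gr64b and Gr64c, and 1 pooled candidate at rank 13171, 814 bp upstream, counted for both Or10a and Gr10a.

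In all, 25 chemoreceptors lie inside a gene that is no chemoreceptor, 20 of them on the strand opposite to a host. For 7 of the 25 a host gene had an optimal summit somewhere in its body, a count with no all-gene counterpart here, and 1 of the 25, Ir60a in nord, had one at its own promoter. Gr77a lies in CG13252, which has 2 optimal summits, and had its own pooled candidate at 187 bp and rank 13400. Gr39a, a bitter receptor gene nested in Mondo, a sugar-sensing transcription factor gene, had its nearest optimal summit at 13901 bp.

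Genes that work with the receptors were read in the same way. Of 82 partner genes (odorant-binding proteins, Orco, membrane proteins of the Snmp family, Che proteins and channels of taste neurons), 4 had an optimal promoter summit (4.88%, against 25.2% of all genes). They were Orco at 832 bp and rank 7089, the odorant-binding protein genes Obp99b (best rank 3517, with 2 summits) and Obp83g (2290), and ppk29 (2615), which encodes a channel subunit of pheromone-sensing taste neurons. The gene lush, whose product binds cis-vaccenyl acetate for Or67d, had none, with its nearest optimal summit at 6200 bp. With the distance widened to 2000 bp, 14 of the 82 partner genes had an optimal summit, against 31.2% of all genes. A pooled promoter summit was found at 29 of the 82, against 43.5% of all genes. None of 13 ionotropic glutamate receptor genes, the relatives of the Ir family, had an optimal promoter summit, against 25.2% of all genes. Nmdar1, 1 of the 13, had 2 summits in its body, the best at rank 2200, where 14.5% of all genes had a body summit. These counts rest on few genes and were not tested. Of 18 regulators of chemosensory neuron fate, 6 (33.3%) had an optimal promoter summit, a share near the 25.2% of all genes. These were zf30C (rank 358), Xbp1 (2521), Poxn (3249), which specifies taste bristles, ey (4972), dac (5587) and Eip93F (6643), an ecdysone-induced factor; pdm3, inv and lz had body summits alone. The fate genes ato, amos and sens, acj6, which regulates odorant receptor choice, and onecut had neither. Of 12 markers of cell types, 1 had an optimal promoter summit (8.33%, against 25.2% of all genes), the neuronal gene elav at rank 302. The other neuronal markers of the list, nSyb, Syt1 and brp, had neither a promoter nor a body summit. Binding lists hold no levels of expression, so the presence of chemosensory neurons in these animals could not be read from them.

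Chemoreceptor promoters, taken as 250 bp before to 50 bp after the gene 5′ end, were compared with those of all protein-coding genes in motifs and base composition. TATCGATA was in 1 of 179 (0.559%), against 9.36% of all protein-coding promoters, and GAGAG in 20.1% against 29.7%. AGGTCA was in 16 (8.94%) against 5.88%, AAGGTCA in 5 (2.79%) against 2.11%, the NR5 element in 3 (1.68%) against 0.746%, and CANNTG in 83.2% against 77.2%. The median GC content was 39.3% against 38.0%. The families differed among themselves: AGGTCA was in 7 Or, 6 Gr and 3 Ir promoters (5.0% of Ir, below all promoters), AAGGTCA in 2 Or, 2 Gr and 1 Ir promoter (1.67% of Ir), and the NR5 element in 0 Or, 2 Gr and 1 Ir promoter. No test was made of these shares, which rest on few genes, and they were not related to the summits.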

How the data were processed

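Chromatin of whole white prepupae of the strain Hr39-RC-GFP was sonicated to fragments of 200 to 800 bp, per the labels. The deposited lists hold, for each region, a signal value set by the authors, used here only for ranks within a list, and other values, the offset from the region start to the summit. Summit positions were the start (column 2) plus the offset (column 10) plus 1. Per the deposited notes, candidate lists were made from alignments of 1 replicate or of both with 1 control alignment, which was not analysed here; which programs aligned reads and called peaks is not given in the sources used here. Lists on dm3 were not used. The lists give no reads, so depth is unknown and no counting interval is given.

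Genes came from Ensembl 115 without transposable elements, on the same coordinates as the RefSeq genome; all region ends lay within its arms. Distances were taken to all annotated TSSs. Summits of 2 lists within 100 bp were taken as the same. Counts were tested on planted summits in simulated data. Named genes were the members with an optimal summit within 1000 bp or up to 2000 bp, receptors of known role, the 5 strongest other pooled candidates, members with the most body candidates and the neighbours of each region; Ir64a, Ir60b, Gr77a, Gr93b, Ir68b and Or67c were named after their values were seen. Members and gene lists were chosen with earlier results of these data known. Alternatives were distances of 500 and 2000 bp, the gene 5′ end alone, overlap of the region, regions with signal above the median, wider bodies, other match distances, protein-coding neighbours alone and each replicate alone. Python 3.11.15 was used with numpy 2.4.6, pandas 2.3.3 and matplotlib 3.10.9.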

Additional observations from a re-analysis of the deposited data

How the results depend on the processing

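With 1 group of 2 replicates no p-value bears on these counts, and leaving out 1 replicate means reading the list of the other. Of 34 alternatives for the main counts, 19 stayed near the reported count and 15 moved away from it; of 107 for single genes, families and gene lists, 79 stayed and 28 moved.

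The 5 genes with an optimal promoter summit became 2 at 500 bp (Ir60a and Ir67c; 21.3% of all genes), 11 at 2000 bp (31.2%) and 2 among regions with signal above the median (Ir94h and Or88a; 16.0%). With 1 replicate they ranged from 3 to 6: replicate 3 alone lost Ir60a and Ir67c, and replicate 1 alone added Gr39b. The 0 genes with a body summit became 10 with 1000 bp added on each side. Pooled promoter counts moved from 30 to 17 at 500 bp (36.8% of all genes), 61 at 2000 bp (53.5%) and 13 above the median signal (33.9%), and ranged from 26 to 48 with 1 replicate; without replicate 3 the count was 48. Pooled body counts moved from 15 to 2 above the median signal and ranged from 13 to 34 with 1 replicate. In these settings for promoters the chemoreceptor share stayed below the all-gene share. Summits nearer to another gene numbered 0 of 2 at 500 bp, 6 of 12 at 2000 bp and 1 of 2 above the median signal. The 12 genes with summits of both replicates became 3 (Ir94h, Or88a and Or9a) when each replicate was limited to its highest-signal regions. The all-gene share was not counted for that setting, nor for pooled body summits above the median signal. A smaller distance or fewer regions lowers a count by construction; other causes were not tested.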
